A study of Mus musculus with 6 samples.

Results

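Transcripts of 9 monocyte genes were followed in subcutaneous MCA205 tumors, a transplantable mouse fibrosarcoma. Of these, 8 are markers of classical monocytes, namely *Ly6c2*, *Ccr2*, *Plac8*, *Chil3*, *Fn1*, *Vcan*, *F10* and *Ms4a4c*, and the other is *Nr4a1*, a regulator of nonclassical monocytes. The genes were chosen by name, with earlier results of these data known. Each was found in the table of 54309 gene identifiers and was among the 13963 genes tested. Female C57BL/6J mice received the tumor cells at 7 weeks of age, and both groups were given their water from bottles from day 1 to day 8. The control group drank milliQ water and the other group drank FF-10101, a kinase inhibitor of FLT3 and CSF1R, at 0.1 mg/mL. Whole tumors were collected on day 8, 3 in each group, and their total RNA was sequenced. The comparison asks how tumor gene expression differed under FF-10101.

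Classical monocytes leave the bone marrow through the chemokine receptor CCR2, circulate with high surface Ly6C, and enter inflamed tissue and tumors, where they can become macrophages or dendritic cells. Some convert in the blood into nonclassical monocytes, which have low Ly6C and high CX3CR1 and depend on the nuclear receptor NR4A1. CSF1R is the receptor of the growth factor on which many macrophages and nonclassical monocytes depend. None of the 9 genes is expressed by monocytes alone. *Fn1* and *Vcan* encode matrix proteins that fibroblasts and tumor cells also make, and *Ly6c2*, *Plac8* and *Chil3* are also read in other leukocytes.

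The bases before the RefSeq start (GRCm38.p6) are shown for the 4 genes with the largest differences between the groups and for *Nr4a1*, to place those genes and the letters found in them. Each window has 250 bases, is read 5′ to 3′ along the gene and ends at the base before the start. Capitals mark a match to a searched motif. For *Ly6c2* and *Plac8*, the first of the 2 starts listed was taken.
Ly6c2 (chr15:75111972-75112221, minus strand): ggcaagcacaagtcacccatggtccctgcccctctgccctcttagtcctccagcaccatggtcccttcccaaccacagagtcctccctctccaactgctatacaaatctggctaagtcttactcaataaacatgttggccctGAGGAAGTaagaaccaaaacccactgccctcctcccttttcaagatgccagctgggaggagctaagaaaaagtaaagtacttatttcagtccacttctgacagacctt
Plac8 (chr5:100572206-100572455, minus strand): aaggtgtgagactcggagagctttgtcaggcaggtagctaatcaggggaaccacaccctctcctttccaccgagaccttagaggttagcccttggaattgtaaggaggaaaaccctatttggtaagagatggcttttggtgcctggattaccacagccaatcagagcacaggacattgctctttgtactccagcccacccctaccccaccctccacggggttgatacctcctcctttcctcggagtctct
Chil3 (chr3:106167565-106167814, minus strand): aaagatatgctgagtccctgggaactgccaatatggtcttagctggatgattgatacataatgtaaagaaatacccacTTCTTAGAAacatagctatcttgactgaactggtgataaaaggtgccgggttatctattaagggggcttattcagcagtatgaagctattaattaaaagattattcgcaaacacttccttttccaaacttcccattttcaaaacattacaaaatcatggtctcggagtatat
F10 (chr8:13037058-13037307, plus strand): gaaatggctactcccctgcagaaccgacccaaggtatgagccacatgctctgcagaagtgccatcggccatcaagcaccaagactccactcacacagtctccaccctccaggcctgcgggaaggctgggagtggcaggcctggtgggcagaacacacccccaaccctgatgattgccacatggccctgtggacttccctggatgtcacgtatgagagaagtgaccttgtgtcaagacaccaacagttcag
Nr4a1 (chr15:101266596-101266845, plus strand): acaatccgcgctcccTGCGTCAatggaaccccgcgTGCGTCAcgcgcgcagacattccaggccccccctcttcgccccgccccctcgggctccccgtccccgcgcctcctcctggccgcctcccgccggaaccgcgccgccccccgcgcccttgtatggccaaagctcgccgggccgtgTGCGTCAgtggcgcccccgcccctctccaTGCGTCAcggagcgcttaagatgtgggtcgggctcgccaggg

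Both strands of the window were searched for 7 motifs in the 8 member genes with an entry, and no entry was matched for *Fn1*. *Ly6c2* held GAGGAAGT, a PU.1-type motif, with its first base at position -108 from the start, and 2.44% of 27025 promoter windows of this length hold it. *Chil3* held TTCNNNGAA, a GAS-type motif of STAT factors, at position -172, and 7.18% of windows hold it. *Nr4a1* held the CRE-like motif TGCGTCA at positions -235, -215, -71 and -42, and 1.78% of windows hold this motif at least at 1 position. The others searched were the ISRE-type motif of interferon response genes (in 3.04% of windows), TGACGTCA (CRE, 1.62%), TTGCNNAA (C/EBP-type, 9.55%) and TATAAA (a core promoter box, 12.97%). No match was found in the windows of *Ccr2*, *Plac8*, *Vcan*, *F10* and *Ms4a4c*, and no matches overlapped each other.

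Between 9143806 and 13258258 reads per tumor were recovered from the deposited values, and levels are given as normalized counts, reads over the size factor of each tumor. Control tumor 1 stood apart from the other control tumors. Its root mean square log2 difference over the genes tested was 0.88 to control tumor 2 and 0.95 to control tumor 3, but between 0.63 and 0.70 to the FF-10101–treated tumors, while control tumors 2 and 3 differed by 0.52. It had the highest level among the control tumors for 8 of the 9 monocyte genes and for 44.6% of all genes tested. The differences of the 9 genes are therefore given with and without it. The tumor was singled out from these same values, for its likeness to the treated tumors. Genes high both in it and in the treated tumors gain from its removal, so calls in that fit are not an independent test. The summed level of the 10 macrophage markers was 100440 normalized counts in control tumor 1 and between 45119 and 59309 in the other 5 tumors. The fibroblast and matrix markers, checked because the tissue is labelled fibrosarcoma, summed to 285548, 136097 and 104598 normalized counts in control tumors 1, 2 and 3 and to 359368, 261328 and 241078 in the treated tumors.

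The plots of the 9 genes in each tumor show the values behind their own comparisons.

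**Figure D1:**
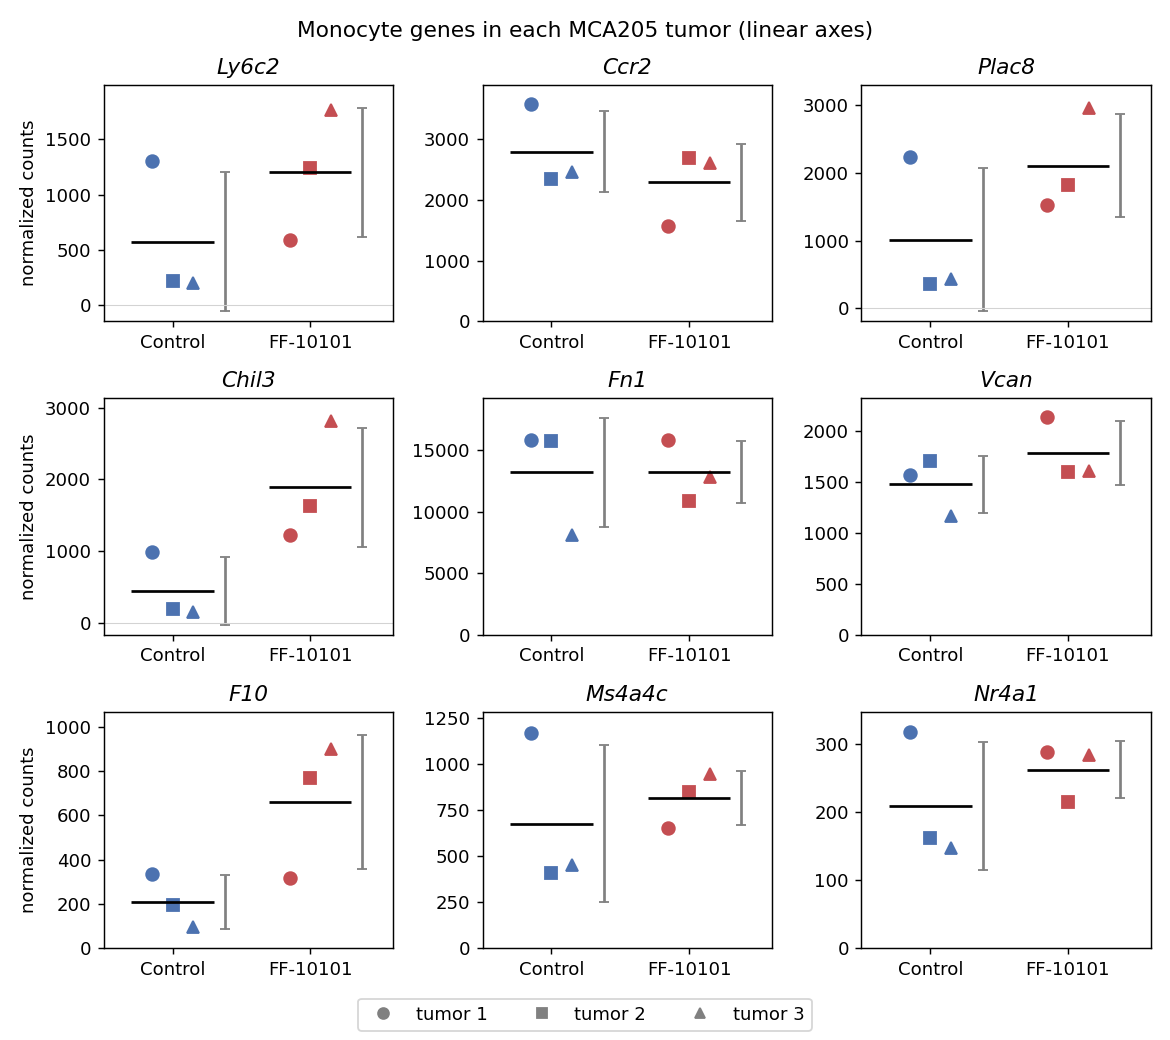
Normalized counts of the 9 monocyte genes in each tumor, on linear axes. Points are tumors, black lines are group means, gray bars are the mean ± SD of 3 tumors, and *Chil3* is the only gene in which all 3 treated tumors lie above all 3 control tumors.

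With all 6 tumors, 0 of the 9 genes passed an adjusted p of 0.05 (limma, Benjamini-Hochberg adjustment over all genes tested), against 0.0430% of all genes tested. An unadjusted p under 0.05 was reached by 3 of the 9, *Plac8*, *Chil3* and *F10*, against 16.3% of all genes, and limma-voom on the recovered reads also called 0. The groups did not overlap for 1 of the 9 genes, against 20.2% of all genes. When single tumors were left out, they did not overlap for 6 of the 9 genes without control tumor 1, all higher, against 54.1% of all genes (28.4% as higher). The count was 2 without control tumor 2 (27.4% of all genes) and 2 without FF-10101 tumor 1 (39.2%). It was 1 without control tumor 3 (24.0%), FF-10101 tumor 2 (23.8%) or FF-10101 tumor 3 (25.5%). Without control tumor 1, 6 of the 9 genes passed, all higher in the FF-10101–treated tumors, and these were *Ly6c2*, *Plac8*, *Chil3*, *F10*, *Ms4a4c* and *Nr4a1*. In that fit 21.9% of all genes passed, and 12.0% of all genes passed as higher. The same shares apply to every list count given below for that fit. The median log2 fold change of the 8 classical genes was 0.96 with all tumors and 1.52 without control tumor 1, and over all genes tested it was 0.020 and 0.036. In bulk tumors, more or fewer monocytes and more or less RNA per monocyte cannot be told apart.

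*Ly6c2* (ENSMUSG00000022584), which encodes the Ly6C antigen by which classical monocytes are sorted, had 1301, 223 and 200.8 normalized counts in control tumors 1, 2 and 3 and 595, 1244 and 1766 in FF-10101 tumors 1, 2 and 3. Control tumor 1 lay above 2 of the 3 treated tumors, so the groups overlapped. The means were 575 ± 629 and 1202 ± 587 normalized counts (SD, n = 3 each). The log2 fold change was 1.49 (95% interval −0.16 to 3.14, limma, adjusted p = 0.342). Without control tumor 1 it was 2.36 (limma, adjusted p = 0.00643).

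The reads of *Ly6c2* are uncertain, because 53.8% of the 31-base stretches of its coding transcript of 822 bases also occur in another gene. Most are in *Ly6c1*, a neighbor expressed by endothelial and some T cells, whose coding transcript is 97.6% identical. *Ly6c2* held 34.2%, 29.3% and 27.7% of the reads of both genes in control tumors 1, 2 and 3 and 19.9%, 28.9% and 31.8% in FF-10101 tumors 1, 2 and 3 (two-sided exact permutation p = 0.5). The 95% Wilson interval of the lowest share, in FF-10101 tumor 1, was 18.7% to 21.2% and did not reach that of any other tumor. It covers counting error only. Summed over both genes, the log2 fold change was 1.69 and the groups overlapped. *Ly6c1* itself had a log2 fold change of 1.76 with all tumors (limma, adjusted p = 0.238) and of 2.51 without control tumor 1 (limma, adjusted p = 0.000397). The endothelial markers moved alongside: 9 of 9 were higher, with 0 past the adjusted threshold with all tumors and 9 without control tumor 1. They summed to 6961, 2815 and 2328 normalized counts in the control tumors and to between 6966 and 7499 in the treated tumors. Their part in the *Ly6c2* values was not tested. Of 5 tested relatives in the LY6 family, *Ly6c1* among them, 5 were higher, with a median log2 fold change of 1.34. The largest was 2.46, for *Ly6i*. With all tumors 0 of the 5 passed, and without control tumor 1 4 passed as higher.

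*Ccr2* (ENSMUSG00000049103), the receptor that brings monocytes out of the marrow, had 3573, 2353 and 2467 normalized counts in control tumors 1, 2 and 3 and 1564, 2697 and 2607 in FF-10101 tumors 1, 2 and 3. FF-10101 tumor 1 was the lowest and control tumor 1 the highest, and the other 4 tumors were close together. This gave a log2 fold change of −0.30 (95% interval −0.90 to 0.29, limma, adjusted p = 0.575). The interval without control tumor 1 was −0.65 to 0.42 around −0.12, and the log2 fold change was −0.05 without FF-10101 tumor 1.

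Of the 4 tested genes for ligands of CCR2, 0 passed the adjusted threshold with all tumors. *Ccl2*, the main ligand, had 4581, 2465 and 2931 normalized counts in the control tumors and 4672, 4476 and 4442 in the treated tumors, a range of treated values narrower than that of the controls. *Ccl7* had a log2 fold change of 0.34 and *Ccl8*, which spanned 3030.5 to 10806 normalized counts within the treated group, of −0.17. *Ccl12* had no treated tumor as high as any control tumor, at 123, 105 and 148 against 317, 424 and 544 normalized counts, or −1.74 on the log2 scale (limma, adjusted p = 0.101). Without control tumor 1, *Ccl2*, *Ccl7* and *Ccl12* passed, the first 2 higher and the last lower.

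*Plac8* (ENSMUSG00000029322), a small cysteine-rich protein of myeloid and lymphoid cells, had 2232, 366 and 439 normalized counts in control tumors 1, 2 and 3 and 1520, 1826 and 2963 in FF-10101 tumors 1, 2 and 3. Control tumor 1 again lay within the treated range. The means were 1013 ± 1057 and 2103 ± 761 (SD, n = 3 each). The log2 fold change was 1.504 (95% interval 0.03 to 2.97, limma, adjusted p = 0.301), and 2.33 without control tumor 1 (limma, adjusted p = 0.00166). None of its 31-base stretches occurs in another gene.

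*Chil3* (ENSMUSG00000040809) encodes Ym1, a secreted chitinase-like protein of classical monocytes, neutrophils and alternatively activated macrophages. It had 992, 197 and 152 normalized counts in control tumors 1, 2 and 3 and 1230, 1623 and 2815 in FF-10101 tumors 1, 2 and 3. Every treated tumor lay above every control tumor (two-sided exact permutation p = 0.1, the lowest that 3 against 3 can give), with control tumor 1 nearest to them. The means were 447 ± 472 and 1889 ± 825 (SD, n = 3 each). The difference on the log2 scale was 2.52 (95% interval 0.98 to 4.05, limma, adjusted p = 0.229). It was 3.35 without control tumor 1 (limma, adjusted p = 0.000831). Its near-identical copy *Chil4* (94.4% identity over the transcript) had 0 reads in every tumor, which allows up to 3 reads in each. Of the 31-base stretches of *Chil3*, 44.8% occur in 4 other genes, 31.1% in *Chil4*, so its reads remain uncertain. *Chil1* was low, with means of 4.46 and 15.6 normalized counts in the control and treated groups.

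*F10* (ENSMUSG00000031444), the clotting factor X, had 337, 193 and 96.5 normalized counts in control tumors 1, 2 and 3 and 318, 768 and 899 in FF-10101 tumors 1, 2 and 3. A single pair of tumors, control tumor 1 and FF-10101 tumor 1, made the groups overlap. On the log2 scale the difference was 1.70 (95% interval 0.51 to 2.89, limma, adjusted p = 0.229), and 2.13 without control tumor 1 (limma, adjusted p = 0.0156). Of 15 tested coagulation and fibrinolysis genes, 11 were higher, 0 passed with all tumors, and 3 passed as higher and 1 as lower without control tumor 1. *F7*, the clotting factor VII that activates factor X with tissue factor, had 85.6, 82.6 and 29.9 normalized counts in the control tumors and 144, 249 and 334 in the treated tumors, a difference of 1.92 on the log2 scale (limma, adjusted p = 0.229). *Plau*, the urokinase plasminogen activator, had 1251, 1304 and 1243 against 760, 493 and 560, −1.09 on the log2 scale (limma, adjusted p = 0.184). The groups did not overlap for either gene, and without control tumor 1 both passed, at 2.18 for *F7* and −1.10 for *Plau*.

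The matrix genes passed the test in neither fit. *Fn1* (ENSMUSG00000026193), fibronectin, had 15806, 15774 and 8085 normalized counts in control tumors 1, 2 and 3 and 15882, 10902 and 12870 in FF-10101 tumors 1, 2 and 3. Control tumor 3 was the lowest, and the log2 fold change was 0.05 (95% interval −0.64 to 0.74, limma, adjusted p = 0.948), and 0.21 without control tumor 1 (limma, adjusted p = 0.621), and between −0.27 and 0.21 when single tumors were left out, negative without control tumor 3 or FF-10101 tumor 1. *Vcan* (ENSMUSG00000021614), the proteoglycan versican, had 1560, 1702 and 1165 normalized counts in the control tumors and 2137, 1594 and 1605 in the treated tumors, which is 0.27 on the log2 scale (95% interval −0.18 to 0.73, limma, adjusted p = 0.513), and 0.32 without control tumor 1 (limma, adjusted p = 0.284). Leaving out control tumor 3 gave 0.11, and leaving out FF-10101 tumor 1 gave 0.13. The 10 fibroblast and matrix markers were all higher, with a median log2 fold change of 0.72 and 4 whose groups did not overlap. Of these, 0 passed with all tumors and 8 without control tumor 1, where the median was 1.15. Their part in the *Fn1* and *Vcan* values was not tested. The groups of both genes overlapped. Among 7 tested fibronectin receptor genes, and among 7 tested genes of versican proteases, the hyaluronan receptor *Cd44* and the hyaluronan synthase *Has2*, 0 passed with all tumors. Without control tumor 1, 2 of the first list passed as higher and 1, *Itgav* (−0.55), as lower, and 3 of the second passed as higher. *Adamts15*, a protease of versican, had the largest log2 fold change of the second list, 2.03, and *Itga8*, an integrin subunit that binds fibronectin, of the first, 1.29.

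*Ms4a4c* (ENSMUSG00000024675), a membrane protein of the MS4A family, had 1168, 410 and 450 normalized counts in control tumors 1, 2 and 3 and 654, 849 and 946 in FF-10101 tumors 1, 2 and 3. Control tumor 1 was above every treated tumor and the other control tumors below every one. The log2 fold change was 0.43 (95% interval −0.46 to 1.31, limma, adjusted p = 0.595) and 0.91 without control tumor 1 (limma, adjusted p = 0.0128). Leaving out control tumor 2 or 3 gave 0.15 and 0.22. Of its transcript, 17.6% of the 31-base stretches occur in other genes, mostly in *Ms4a4b*. Within the family, the log2 fold change was 2.08 for *Ms4a4d* and −0.69 for *Ms4a7*, a gene of tissue macrophages, and neither passed with all tumors. Both passed when control tumor 1 was left out, at 2.86 and −0.73.

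*Nr4a1* (ENSMUSG00000023034), which encodes the nuclear receptor Nur77 and is also an immediate early gene of many cells, had 317, 162 and 146 normalized counts in control tumors 1, 2 and 3 and 288, 214 and 284 in FF-10101 tumors 1, 2 and 3. Control tumor 1 was above every treated tumor here too. The log2 fold change was 0.40 (95% interval −0.31 to 1.12, limma, adjusted p = 0.540) and 0.75 without control tumor 1 (limma, adjusted p = 0.0313). With control tumor 2 or 3 left out it was 0.27 and 0.19. Its relatives *Nr4a2* and *Nr4a3* had log2 fold changes of 0.10 and 0.56 with all tumors, and of 0.20 and 1.07 without control tumor 1, where *Nr4a3* passed (limma, adjusted p = 0.0382). Of 14 tested immediate early genes, 10 were higher and 0 passed with all tumors, and 6 passed as higher and 1 as lower without control tumor 1. *Dusp1* and *Fosl1* had the highest and lowest log2 fold changes, 0.98 and −0.82.

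**Figure D2:**
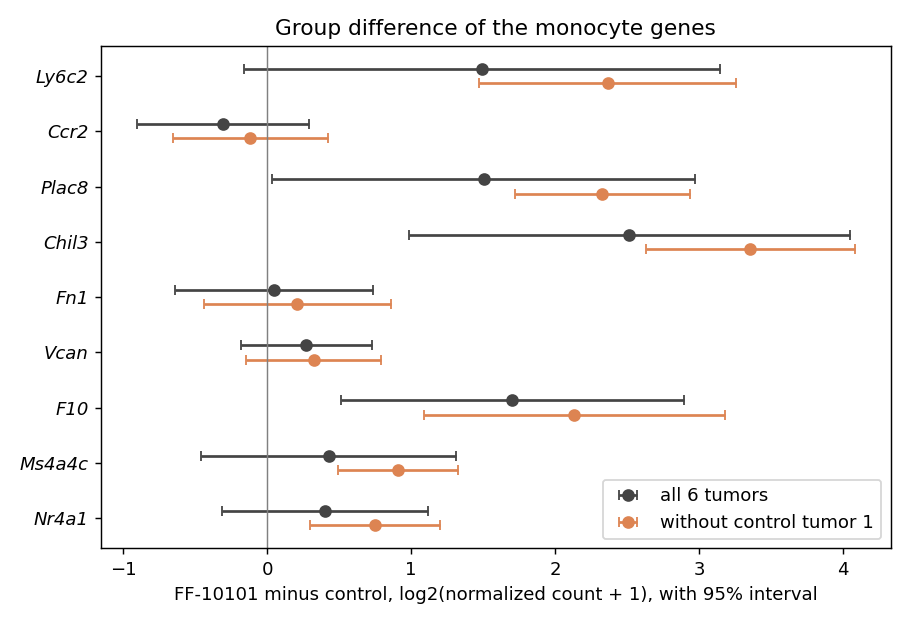
Log2 fold change (FF-10101 minus control, log2(normalized count + 1)) of each gene with its 95% interval, from the fit of all 6 tumors and from the fit without control tumor 1. The intervals of *Ly6c2*, *Plac8*, *Chil3*, *F10*, *Ms4a4c* and *Nr4a1* lie above 0 in the fit without control tumor 1, and those of *Ccr2*, *Fn1* and *Vcan* include 0 in both fits.

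Levels were compared between genes as normalized counts per kilobase of the longest coding transcript. In the control tumors the order was *Fn1*, *Plac8*, *Ly6c2*, *Ccr2*, *Ms4a4c*, *Chil3*, *Vcan*, *F10* and *Nr4a1*, from a mean of 1590 to 81.7 per kilobase, and the ranges of all neighbors overlapped. In the treated tumors *Plac8* came first with 1718, followed by *Fn1* with 1590, *Ly6c2* with 1462, *Chil3* with 1228, *Ms4a4c* with 474, *Ccr2* with 400, *F10* with 264, *Vcan* with 143 and *Nr4a1* with 103. There, the ranges of *Chil3* and *Ms4a4c*, and of *Vcan* and *Nr4a1*, did not overlap. The control order depended on control tumor 1. Without it, the order was *Fn1* with 1435 per kilobase, *Ccr2* with 421, *Plac8* with 329, *Ly6c2* with 258, *Ms4a4c* with 249.6, *Vcan* with 115, *Chil3* with 113, *Nr4a1* with 60.4 and *F10* with 57.9. *Chil3* was then seventh and *Ccr2* second.

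The genes also varied differently over the tumors. Over the 6 tumors the log2 range was 4.20 for *Chil3*, 3.21 for *F10*, 3.13 for *Ly6c2* and 3.01 for *Plac8*, but 0.87 for *Vcan* and 0.97 for *Fn1*. Within the control group it was 2.69 for *Ly6c2*, 2.60 for *Plac8* and 2.70 for *Chil3*, against a median of 0.61 over all genes tested.

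**Figure D3:**
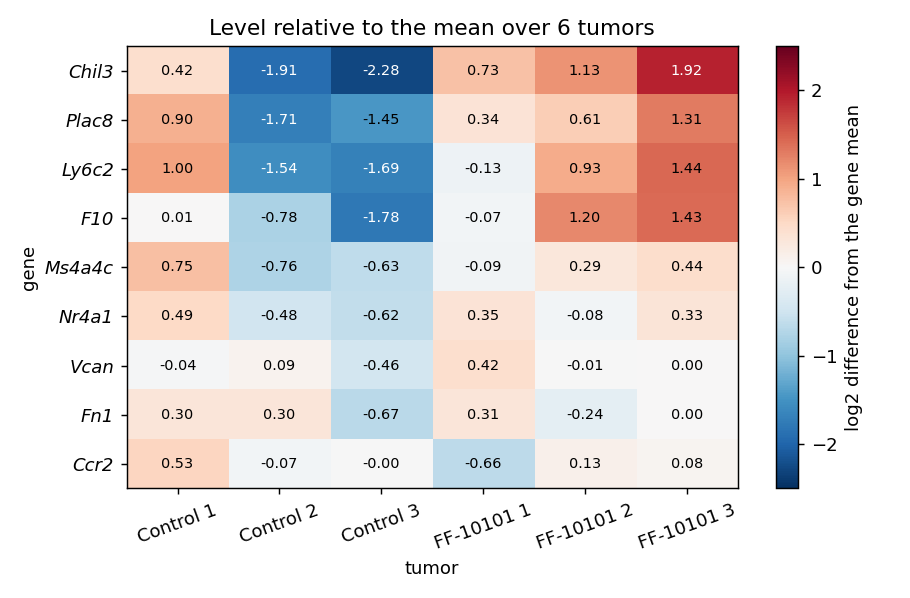
Log2(normalized count + 1) of each gene in each tumor, minus the mean of the gene over the 6 tumors. Control tumors 2 and 3 are the lowest for *Chil3*, *Plac8*, *Ly6c2*, *F10*, *Ms4a4c* and *Nr4a1*, and FF-10101 tumor 1 is the lowest for *Ccr2*.

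The pattern of each gene over the 6 tumors was compared with that of every tested gene by the root mean square difference of centered log2 values. This describes likeness over 6 tumors only. Within the 9 genes, *Fn1* and *Vcan* were the closest pair at 0.21, followed by *Ly6c2* and *Plac8* at 0.27 and *Ms4a4c* and *Nr4a1* at 0.28, and *Ccr2* and *Chil3* were the farthest apart at 1.58. The genes most like *Ccr2* were *Ms4a6c* at 0.026, *Fcgr3*, an Fc receptor, at 0.046 and *Tyrobp*, a signaling adaptor of myeloid receptors, at 0.061. Those most like *Chil3* were *Nos2*, the inducible nitric oxide synthase, at 0.17, *Mt2*, a metallothionein, at 0.21 and *Sfrp1* at 0.28. For *Ly6c2* they were *Cd8b1*, a chain of the CD8 coreceptor, at 0.18, *Mt1* at 0.22 and *Vldlr* at 0.23, and for *Plac8* they were *Slco1a5* at 0.13, *Ndrg1* at 0.15 and *Mt1* at 0.15. *F10* was closest to *Slc7a11*, *Kcne4* and *Acer2*, at 0.22 to 0.25. *Ms4a4c* was closest to *Tmem229b*, *Lgals3* and *Oas1a*, at 0.056 to 0.096, and *Nr4a1* to *Gm48942*, *Ecm1* and *Egr3*, at 0.074 to 0.088. *Vcan* was closest to *Pcdhb22*, *Fbxl18* and *Hectd4*, at 0.047 to 0.066, and *Fn1* to *Naif1*, *Clasp1* and *Prpf8*, at 0.085 to 0.11.

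Each gene was also expressed relative to the mean log2 level of the 10 macrophage markers of the same tumor. On this relative log2 scale, the groups did not overlap for 6 of the 9 genes, all higher in the FF-10101–treated tumors, against 26.3% of all genes tested. The differences were 2.83 for *Chil3*, 2.02 for *F10*, 1.82 for *Plac8*, 1.81 for *Ly6c2*, 0.74 for *Ms4a4c* and 0.72 for *Nr4a1*. For *Ly6c2*, control tumor 1 was at −1.97 and the nearest treated tumor at −1.82. Without control tumor 1, the differences of these 6 genes were 3.37, 2.15, 2.35, 2.38, 0.93 and 0.77 in the same order. With all tumors, the difference was 0.01 for *Ccr2*, 0.36 for *Fn1* and 0.59 for *Vcan*, with groups that overlap. The 6 genes had an exact two-sided permutation p of 0.1, the smallest possible, and an adjusted p of 0.169 over 27 tests (9 genes against 3 references). Of the macrophage markers themselves, 8 of 10 were lower and 4 had groups that do not overlap, *Adgre1*, *C1qa*, *C1qb* and *C1qc*, and their mean level enters each relative difference. The median log2 fold change of the macrophage markers was −0.19 with all tumors and 0.21 without control tumor 1.

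Relative to the leukocyte list the groups did not overlap for 5 of the 9 genes, all higher, against 10.1% of all genes. Relative to the neutrophil list they did not overlap for 5 of the 9 genes, all lower, against 78.0% of all genes, and *Ly6c2*, *Plac8* and *F10* differed by 0.0053, 0.016 and 0.22. These 3 differences without control tumor 1 were 0.50, 0.46 and 0.27. The groups of *Chil3* also overlapped on this scale, with a difference of 1.03, and of 1.49 without control tumor 1. Single tumors were spread widely on this scale, with *Ly6c2* at 2.91, 1.21 and 1.64 in the control tumors and 1.26, 2.17 and 2.35 in the treated tumors. Of the neutrophil markers, 6 of 7 tested were higher, with a median log2 fold change of 1.61, and they summed to between 1927 and 2286 normalized counts in the control tumors and between 2785 and 3234 in the treated tumors. With all tumors 0 passed, and without control tumor 1 5 of 7 passed as higher, with a median of 2.13. For 3 of the 7, *S100a8*, *S100a9* and *Cxcr2*, each treated tumor exceeded all control tumors, and the groups of the other tested markers overlapped. Mean normalized counts rose from 81.7 to 221 for *S100a8*, from 108 to 336 for *S100a9* and from 42.2 to 204 for *Cxcr2*. Their log2 fold changes were 1.61, 1.94 and 2.30 (limma, adjusted p = 0.229, 0.229 and 0.0813). Of the granule genes on this list, *Ngp* had 0 reads in every tumor, *Camp* had 1 read in FF-10101 tumor 1 and 0 in the others, and *Ltf* had 9, 6 and 0 reads in the control tumors and 10, 6 and 5 in the treated tumors. *Mmp8* had means of 17.2 and 49.8 normalized counts in the control and treated groups, and *Mmp9*, which other cells also express, 1235 and 1149. The part of neutrophils in the *Ly6c2*, *Plac8*, *Chil3* and *F10* values was not tested.

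**Figure D4:**
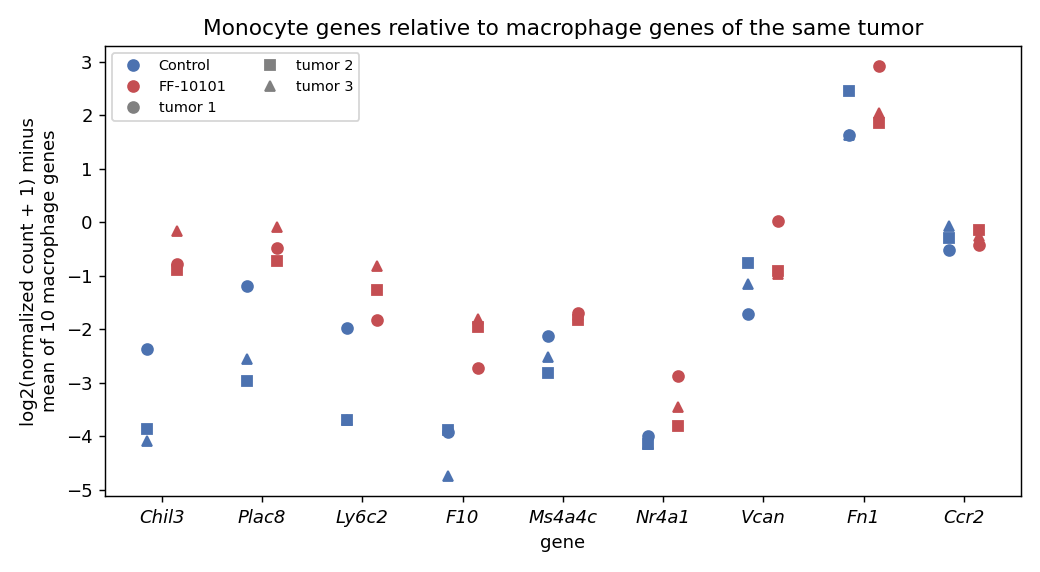
Log2(normalized count + 1) of each gene minus the mean of 10 macrophage genes of the same tumor, 1 point per tumor. The groups do not overlap for *Chil3*, *Plac8*, *Ly6c2*, *F10*, *Ms4a4c* and *Nr4a1*, and they overlap for *Vcan*, *Fn1* and *Ccr2*.

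Other genes known from classical monocytes did not move one way. Of 16 tested, 10 were higher and 6 lower, 0 passed with all tumors, and the median log2 fold change was 0.52. Without control tumor 1, 5 passed as higher and 1 as lower, *F13a1*, and the median was 0.73. *F13a1*, the coagulation factor XIII A chain, had 1129, 983 and 1139 normalized counts in the control tumors and 254, 345 and 737 in the treated tumors, −1.43 on the log2 scale (limma, adjusted p = 0.229). *Lyz2*, lysozyme, had a log2 fold change of −1.05 and *Itgam*, the CD11b integrin chain, of −0.73, each lower in every treated tumor. In contrast, *Clec4e*, a receptor for fungal and mycobacterial glycolipids, had 258, 94.5 and 138 normalized counts against 289, 443 and 461, 1.37 on the log2 scale (limma, adjusted p = 0.229), and *Hp*, haptoglobin, had 1.14. Every treated tumor was above every control tumor for *Clec4e*, *Hp* and *S100a4*.

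Of 11 tested genes of nonclassical monocytes, 7 were higher and 4 lower, and 1 passed with all tumors: *Cx3cr1*, the fractalkine receptor, with 845, 1199 and 1219 normalized counts in the control tumors and 102, 114 and 73.8 in the treated tumors, fell by 3.49 on the log2 scale (limma, adjusted p = 0.00287), and by 3.66 without control tumor 1. *Cx3cr1* is not a gene of nonclassical monocytes alone. The study counts it among genes of M2-like macrophages and reports a decrease by quantitative PCR in macrophages sorted from tumors. The part of macrophages in its values was not tested. *Spn*, which encodes CD43, had a log2 fold change of 0.80. When control tumor 1 was left out, 3 of the 11 passed, *Cx3cr1* as lower and *Spn* (1.29, limma, adjusted p = 0.00777) and *Itgal* (0.99, limma, adjusted p = 0.0176) as higher. Of 10 tested transcription factor genes of the monocyte lineage, 7 were higher, 0 passed with all tumors and 4 passed as higher without control tumor 1. *Spi1*, which encodes PU.1, had means of 1683 and 1216 normalized counts, a log2 fold change of −0.37, and of −0.02 without control tumor 1.

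Other lists were read in the same libraries. Of 13 tested interferon response genes 13 were higher, with a median log2 fold change of 1.221, of 9 CD8 T cell markers 9 were higher (0.53), and of 6 NK cell markers 6 were higher (0.97), with 0 past the adjusted threshold with all tumors. When control tumor 1 was left out, 13 of 13, 5 of 9 and 6 of 6 passed as higher, against 12.0% of all genes tested. The medians were then 1.76, 1.07 and 1.53. In each of these lists, the summed level of control tumor 1 was the highest of the control tumors, at 51471, 4332 and 2999.9 normalized counts. Of 9 dendritic cell markers 4 were higher and 5 lower, with a median of −0.24, and of −0.07 without control tumor 1. Of the 6 leukocyte genes 5 were higher and 1 lower, with a median of 0.10, and of 0.52 without control tumor 1. With all tumors, 0 genes of either list passed, and 2 of each passed as higher without control tumor 1. The part of these cells in the values of the monocyte genes was not tested.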

How the data were processed

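Bulk RNA sequencing of 3 control and 3 FF-10101–treated MCA205 tumors was used, grouped by the sample titles. Per the labels and the study's methods, the authors trimmed reads with fastp (version 0.19.5), quantified them with Salmon (1.5.1) on GENCODE vM27 and used DESeq2 (1.22.1). The deposited table holds log2 values that have the form of a variance-stabilizing transformation, which the sources do not name. Inverting it returned whole reads for 100% of them (largest gap to a whole number 2.5e-09), divided here by the size factor of each tumor. Because Salmon shares ambiguous reads by estimation, genes with near-identical copies are uncertain.

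The 13963 genes averaging 10 or more normalized counts were tested with limma (version 3.58.1, R 4.3.3, lmFit and eBayes with a trend) on log2(normalized count + 1), with Benjamini-Hochberg adjustment over all of them. A fold change on this scale understates that of low genes. For single values an exact permutation test (two-sided) was used, whose smallest p for 3 tumors against 3 is 0.1. The limma step was also run on simulated reads with known changes, and the outcome is not given here. The series describes the 3 tumors of a group as biological replicates. Names and 31-base stretches came from GENCODE vM21, and promoter windows from RefSeq on GRCm38.p6, searched for motifs chosen after the table was seen. The authors' build differs, so no other coordinates are given.

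The 9 genes and the lists were chosen with earlier results of these data known. Named were the 9 genes, the paralogs, the CCR2 ligands, *Nr4a2* and *Nr4a3*, and the 3 genes of most like pattern. Genes were also named from some of the lists, among them those with the highest or the lowest log2 fold change. Other lists are given by counts and summary levels only. Alternatives were other pseudocounts, count minimums, scalings, no trend, the deposited log2 values, limma-voom, array weights, a block for the replicate number, leaving out each tumor, summed paralogs and other reference lists. The order of levels without control tumor 1 was added after the data were seen. Counting limits of 3 reads are 2.29 to 3.38 normalized counts.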

Additional observations from a re-analysis of the deposited data

How the results depend on the processing

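The number of genes past the threshold, 6 of 13963, was 17 with no count minimum, 3 with a minimum mean of 50, 8365 with array weights, and between 1 and 3051 when single tumors were left out, the 3051 being without control tumor 1. With the replicate number as a block it was 1. The deviations of same-numbered tumors from their group means had correlations of −0.29, −0.040 and −0.28. With 3 tumors in a group, these cannot settle whether the numbers pair the tumors. Of the 9 monocyte genes, 0 passed in the fit of all tumors and 7 with array weights. Between 0 and 6 passed when single tumors were left out, the 6 being without control tumor 1. The array weights were 0.139, 5.39 and 0.475 for control tumors 1, 2 and 3. They were 0.406, 8.08 and 0.859 for FF-10101 tumors 1, 2 and 3, so that fit rests mostly on tumor 2 of each group. The groups did not overlap for 1 gene with all tumors, for 2 without control tumor 2 (27.4% of all genes tested), for 2 without FF-10101 tumor 1 (39.2%), for 6 without control tumor 1 (54.1%) and for 1 without each of the other tumors (23.8% to 25.5%). The log2 fold change of *Ccr2* was 0.14 and that of *Vcan* −0.029 with array weights. That of *Fn1* was −0.41 with array weights, lower and past the threshold (limma, adjusted p = 0.0277), −0.27 with control tumor 3 left out and −0.09 with FF-10101 tumor 1 left out, and its range over single tumors left out was −0.27 to 0.21. Among the alternatives of the 9 log2 fold changes, 136 kept their direction and side of the threshold, 12 passed it in the same direction (6 genes without control tumor 1 and the same 6 with array weights), and 5 changed direction. Summing its reads with *Ly6c1* moved *Ly6c2* by less than the spread between tumors, and summing with *Chil4*, which had 0 reads, could not move *Chil3*. The cause was not tested. Pseudocounts of 0.5 and 10, both scalings, no trend, the deposited log2 values and limma-voom left 0 of the 9 genes past the threshold.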
